A study of Mus musculus with 48 samples.

Results

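The infarct zone (IZ) and the remote zone (RZ) of P10 mouse hearts were compared 3 days after myocardial infarction (MI). The comparison rests on 4 of the 42 libraries with files, namely IZ replicates 2 and 3 and RZ replicates 2 and 3, chosen by their titles. The 2 border zone (BZ) libraries with the same age, surgery, day and numbers were placed on the difference. C57BL/6 mice had the left anterior descending coronary artery ligated on postnatal day 10 (P10), an age at which the heart no longer regenerates, and were taken on day 3. In sham hearts of the same age no infarct exists, and IZ, BZ and RZ there name the matching parts of the wall. Both sham at day 3 and MI at day 7 held 2 libraries per zone and serve as the reference for a zone difference. Each library came from cells sorted as CD45+F4/80+7AAD- mononuclear phagocytic cells (MPCs), and several hearts were pooled per zone. The antibody was raised against H3K27ac, acetylated lysine 27 of histone H3. CoBATCH, a single-cell ChIP method, was used to map it. The deposited reads carry no cell name, so each library was read as a bulk sample. A lower level can then come from fewer cells of a type or from less signal per cell, and these cannot be told apart.

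H3K27ac marks active enhancers and promoters, so its level around a gene is a proxy of the gene's activity and not a measure of its RNA. An infarcted heart first draws in neutrophils and Ly6c-high monocytes from the blood, which carry inflammatory and granule genes. Macrophages that reside in the healthy myocardium clear dying cells with complement C1q and receptors such as Mertk and Lrp1, and many of them are lost in the ischemic wall. Far from the infarct, in the remote myocardium, resident macrophages persist.

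The 4 libraries held 474991 (IZ replicate 2), 355559 (IZ replicate 3), 538151 (RZ replicate 2) and 137589 (RZ replicate 3) unique read pairs, and the BZ libraries 257633 and 755715. A read without its mate was counted as a pair, which made up 13.7%, 12% and 15.6% of the total in the libraries numbered 2 (IZ, BZ, RZ) and 0 in those numbered 3. RZ replicate 3 was the shallowest, with a median of 12 pairs per tested gene window against 47 in RZ replicate 2. Levels are given as CPM, the read pairs of a feature relative to the TMM-scaled total of the library, and in each set of values replicate 2 precedes replicate 3. A gene window spans the gene, 50 kb before it and 30 kb behind it, the span the study used for gene activity. Windows of neighbors overlap and then share pairs, as for S100a8 and S100a9, Trem1 and Trem3, C1qa, C1qb and C1qc, Ly6c2 and Ly6g, and Trem2 and Treml2. Of the 6 P10 MI day 3 libraries, those with the same number were sequenced on the same flow cells, and those numbered 2 and 3 on different ones. Chromosome Y held 0.0121% of pairs in IZ replicate 3 and 0.0124% in BZ replicate 3, but 0.0363% in RZ replicate 3. In the libraries numbered 2 the range was 0.0035% to 0.0052%. The labels do not say whether equal numbers mark the same hearts, so a pair here is 2 libraries of equal number, which need not be matched.

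No gene window passed the test between IZ and RZ. Of 16179 windows tested with limma, 0 (0%) had an adjusted p under 0.05, the lowest was 0.47, and 1375 had an unadjusted p under 0.05. Of these, 744 (4.6%) were higher in the IZ and 631 (3.9%) lower. Both IZ libraries exceeded both RZ libraries in 2917 windows (18%) and lay below both in 2677 (16.5%). The 2 pairs of equally numbered libraries gave the same sign in 52.3% of windows, and the median size of the difference was 0.30 on the log2 scale in pair 2 and 0.49 in pair 3. The median standard error of the fitted log2 difference was 0.35. With 2 libraries against 2, an exact permutation test of a single gene cannot go below 0.33. All log2 differences below are IZ minus RZ unless stated otherwise, and every gene window named had an adjusted p of 0.47 or more.

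Of the 20 lists, that of S100a9 monocytes and granulocytes had the largest median difference. All 14 windows of this list, which make up 12 separate stretches, were fitted higher in the IZ. Their median log2 difference was 0.77, against 0.01 over all windows. At an unadjusted p under 0.05, 8 of the 14 were higher and 0 lower, and in 8 both IZ libraries exceeded both RZ libraries, against 4.6% and 18% of all windows. The summed level of the list was 1353 and 3672 in the IZ, 2303 and 2503 in the BZ and 1202 and 1124 in the RZ. IZ replicate 3 thus stood at 3.27 times its RZ library and IZ replicate 2 at 1.13 times. Sums on pairs inside H3K27ac regions alone were scaled to the same library totals. They were 533 and 1545 in the IZ and 627 and 508 in the RZ. IZ replicate 2 had 42.04% of its pairs in regions and RZ replicate 2 55.18%. The scaling leaves this gap in, so the order of 533 and 627 does not compare the zones. On all pairs IZ replicate 2 lay close to the RZ libraries, and IZ replicate 3 stood apart. S100a9, S100a8, Lcn2, Cd177, Wfdc21 and Cxcr2 were taken from the study, which named them on these cells, so the direction of the list is not independent evidence.

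**Figure D1:**
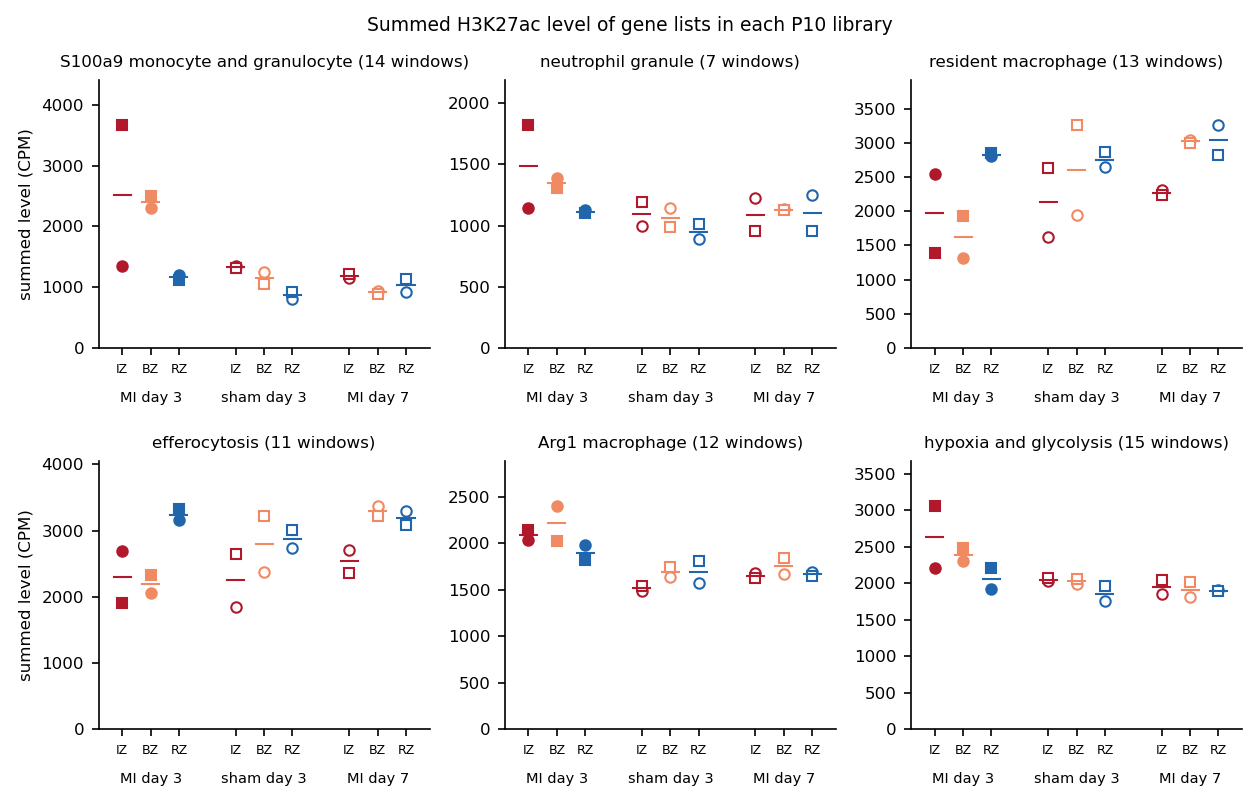
Summed level of 6 gene lists in each P10 library, in CPM on the vertical axis, for IZ, BZ and RZ after MI at day 3 (filled), in sham at day 3 and after MI at day 7 (open). Circles are the lower and squares the higher replicate number, and bars are means of 2 libraries. In the S100a9 panel IZ replicate 3 is at 3672 while IZ replicate 2, at 1353, sits just above the RZ libraries.

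S100a9 and S100a8 encode the subunits of calprotectin, an abundant granulocyte and monocyte alarmin. The S100a9 window (gene at chr3:90692632-90695721) had 82 and 349 CPM in the IZ, 131 and 216 in the BZ and 59 and 7.25 in the RZ. The zones did not overlap, but the last value stands for 1 read pair, and the fit gave 1.94 ± 0.76 (SE) on the log2 scale (adjusted p = 0.51), from 1.06 to 4.82 with 1 library left out. S100a8, whose window overlaps it, had 98 and 378 in the IZ and 75.6 and 14.5 in the RZ, the last from 2 pairs. Cxcr2, the receptor that draws neutrophils to CXC chemokines, lies at chr1:74153989-74161246. It had 59.2 and 271 in the IZ, 147 and 171 in the BZ and 29.5 and 79.8 in the RZ. The IZ values enclosed an RZ value, although within each pair the IZ was higher, and the log2 difference was 1.62 ± 0.50 (SE).

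Csf3r, the receptor for granulocyte colony-stimulating factor (chr4:126024550-126044440), had 194 and 383 CPM in the IZ and 144 and 160 in the RZ. Both IZ libraries and both BZ libraries, at 274 and 318, lay above both RZ libraries, and the log2 difference was 0.81 ± 0.27. Lcn2, the siderophore-binding lipocalin of neutrophil granules, had 150 and 236 in the IZ, 147 and 130 in the BZ and 107 and 138 in the RZ. Here the BZ overlapped the RZ, unlike for S100a9 and Csf3r. Cd177, a neutrophil surface protein, had 36.4 and 89.4 in the IZ against 18.4 and 14.5 in the RZ, and Wfdc21 had 98 and 254 against 83 and 94.3. The zones did not overlap for either gene, but the 14.5 of Cd177 rests on 2 pairs.

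Neutrophil granule proteins and the neutrophil surface antigen Ly6g formed a separate list of 7 windows. Its median log2 difference was 0.16, with 1 window higher at an unadjusted p under 0.05 and 0 lower, against 4.6% and 3.9% of all windows. That window was Ltf, the gene for lactoferrin (chr9:111019271-111042767), with 237 and 406 in the IZ, 362 and 237 in the BZ and 151 and 181 in the RZ. The log2 difference of 0.93 ± 0.25 was among the smaller p-values of all windows, and the zones did not overlap. Ly6g, the antigen by which neutrophils are sorted, had 56.9 and 92.2 in the IZ and 35 and 36.3 in the RZ, but its window overlaps that of Ly6c2, the classical monocyte antigen, which had 70.6 and 98 against 44.3 and 36.3. Elastase, myeloperoxidase and proteinase 3 did not separate the zones: Prtn3 had 255 and 343 in the IZ and 255 and 276 in the RZ.

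The remaining Ly6c-high monocyte genes went both ways. The 9 windows had a median log2 difference of 0.06, with 1 higher (Ly6c2) and 1 lower (Ms4a4c) at an unadjusted p under 0.05, against 4.6% and 3.9% of all windows. Ly6c2 had a log2 difference of 0.91 ± 0.43. Ccr2, the chemokine receptor of classical monocytes, went the other way by a small amount, with 305 and 308 in the IZ, 417 and 325 in the BZ and 358 and 355 in the RZ. Ms4a4c had 107 and 92.2 in the IZ and 160 and 145 in the RZ, a log2 difference of -0.63 ± 0.28. The 7 Ly6c-low monocyte windows had a median of -0.03 and none with an unadjusted p under 0.05. Ace had 38.7 and 31.7 in the IZ and 40.6 and 21.8 in the RZ, and Nr4a1, the factor that patrolling monocytes need, 269 and 375 against 354 and 261.

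Resident macrophage genes lay on the opposite side. The 13 windows had a median log2 difference of -0.56, with 0 higher and 5 lower at an unadjusted p under 0.05, against 4.6% and 3.9% of all windows. In 5 windows both IZ libraries lay below both RZ libraries and in 0 above, against 16.5% and 18% of all windows. The summed level was 2544 and 1392 in the IZ, 1322 and 1928 in the BZ and 2805 and 2850 in the RZ. The 2 RZ libraries lay close together, while the IZ stood at 0.91 times the RZ in pair 2 and at 0.49 times in pair 3. Lyve1, C1qa, Mgl2, Fcrls and Cbr2 of this list were taken from the study, which named them on these cells, so its direction is not independent evidence.

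Cbr2, a carbonyl reductase that marks one set of resident cardiac macrophages (chr11:120729489-120732114), had 125 and 49 CPM in the IZ, 50.5 and 130 in the BZ and 195 and 196 in the RZ. The zones did not overlap, and the log2 difference was -1.22 ± 0.39. Gas6, which bridges dying cells to Mertk, had 68.3 and 34.6 in the IZ, 16.8 and 58.4 in the BZ and 109 and 152 in the RZ, a log2 difference of -1.18 ± 0.36. C1qa, a chain of complement C1q (chr4:136895917-136898803), had 210 and 72.1 in the IZ, 101 and 170 in the BZ and 255 and 305 in the RZ. For all 3 genes IZ replicate 3 had the lower of the 2 IZ values.

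Mgl2, a macrophage lectin, had 93.4 and 49 in the IZ, 4.21 and 103 in the BZ and 131 and 189 in the RZ. Its lowest value was that of BZ replicate 2, where it rests on 1 pair. Fcrls had 159 and 60.5 in the IZ and 155 and 218 in the RZ, and Lyve1, the hyaluronan receptor of resident macrophages, 292 and 167 against 271 and 283. IZ replicate 2 lay between the RZ libraries for Fcrls and above both for Lyve1, and IZ replicate 3 lay below both in each gene. Lyve1 had a log2 difference of -0.28 ± 0.27.

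**Figure D2:**
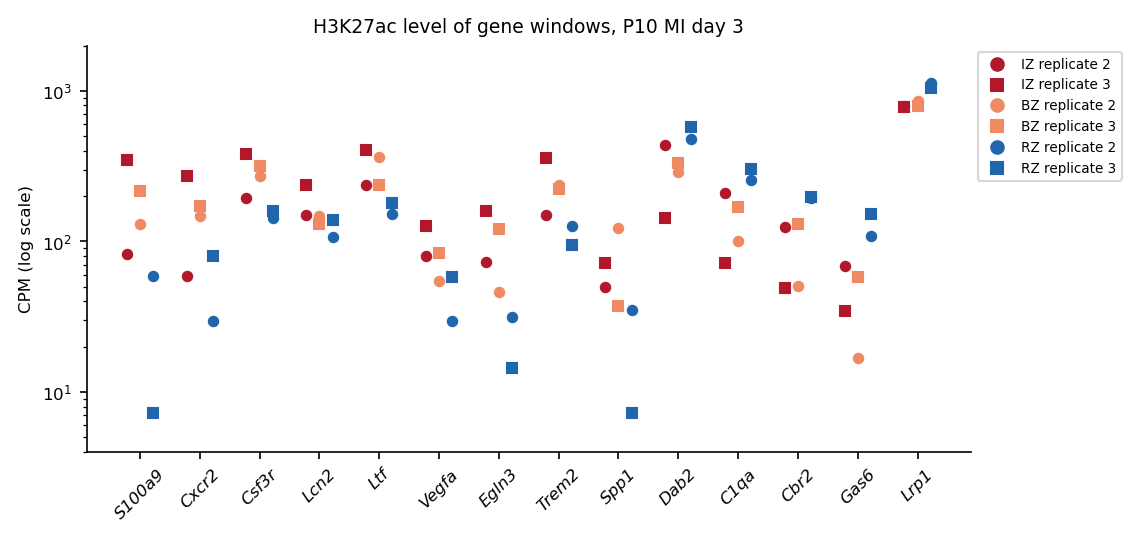
H3K27ac level of 14 gene windows in the 6 P10 MI day 3 libraries, in CPM on a log axis. Circles are replicate 2, squares replicate 3, and the symbols of a gene run from IZ to RZ. S100a9, Csf3r and Vegfa have both IZ libraries above both RZ libraries, and C1qa, Cbr2, Gas6 and Lrp1 have both below. The square for S100a9 at 7.25 stands for 1 read pair.

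Genes of efferocytosis, the uptake of dying cells, shared this direction. Of 10 windows, 8 were fitted lower in the IZ, with a median of -0.39, and 4 were lower at an unadjusted p under 0.05 and 0 higher, against 3.9% and 4.6% of all windows. In 5 windows both IZ libraries lay below both RZ libraries and in 2 above, against 16.5% and 18% of all windows. The median was -0.08 in pair 2 and -0.56 in pair 3. For the plain mean of 2 pairs it was -0.32 in sham hearts and -0.33 at day 7. Lrp1, a scavenger receptor (chr10:127538161-127621148), had 795 and 778 in the IZ, 855 and 793 in the BZ and 1129 and 1052 in the RZ. This window holds many pairs, from 145 to 612 in the 4 libraries, and its difference was of the same size in both pairs (-0.50 and -0.44). C1qb and C1qc share most of their window with C1qa and repeat its values. Lgmn, the lysosomal protease legumain of macrophages, was among the windows with the smallest p and had 476 and 424 in the IZ, 564 and 565 in the BZ and 712 and 703 in the RZ. Its log2 difference was -0.65 ± 0.17.

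The 8 leukocyte and macrophage identity windows had a median log2 difference of -0.29, and none had an unadjusted p under 0.05. In 4 of them both IZ libraries lay below both RZ libraries and in 0 above, against 16.5% and 18% of all windows. Adgre1, which encodes the F4/80 antigen of the sort, had 239 and 233 in the IZ, 194 and 226 in the BZ and 314 and 297 in the RZ. Both IZ libraries were below both RZ libraries, by 0.39 ± 0.22 on the log2 scale. Cd68 had 333 and 323 in the IZ and 417 and 457 in the RZ, and Lyz2, lysozyme, 235 and 193 against 210 and 152. All 8 genes had pairs in every library. The 12 macrophage identity factor windows had a median of -0.21 with 0 higher and 1 lower at an unadjusted p under 0.05, against 4.6% and 3.9% of all windows, and the lower one was Irf8, a factor of monocyte development, with 367 and 216 in the IZ and 498 and 283 in the RZ.

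MHC class II genes did not separate the zones. The 7 windows had a median of -0.05. None had an unadjusted p under 0.05, against 4.6% higher and 3.9% lower of all windows. None lay outside the range of the other zone, against 18% above and 16.5% below of all windows. H2-Aa had 70.6 and 66.3 in the IZ, 80 and 79.6 in the BZ and 49.8 and 79.8 in the RZ. H2-Eb1 had 72.9 and 74.9 in the IZ and 53.5 and 87 in the RZ, and H2-Ab1 63.8 and 69.2 against 62.7 and 87. The windows of these neighbors overlap.

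The Arg1 macrophage list, genes of lipid handling and repair of which 7 were taken from the study, held members on both sides. The median of 12 windows was 0.33, with 2 higher and 1 lower at an unadjusted p under 0.05, against 4.6% and 3.9% of all windows. Its summed level was 2032 and 2136 in the IZ, 2404 and 2019 in the BZ and 1977 and 1813 in the RZ, so the zones lay close together. Arg1 itself had 82 and 138 in the IZ, 96.8 and 82.3 in the BZ and 79.3 and 87 in the RZ. Its log2 difference was 0.34 ± 0.31, from 0.01 to 0.77 with 1 library left out. Gpnmb had 63.8 and 110 in the IZ and 66.4 and 43.5 in the RZ, and Igf1 148 and 60.5 against 109 and 181. For these 3 genes the zones overlapped.

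Within the list Spp1, osteopontin, and Trem2, a lipid receptor, were the 2 higher members. Spp1 had 50.1 and 72.1 CPM in the IZ, 122 and 37.1 in the BZ and 35 and 7.25 in the RZ, where the last value is 1 pair. Trem2 (chr17:48346401-48354147) had 150 and 357 in the IZ, 236 and 224 in the BZ and 127 and 94.3 in the RZ. Its window overlaps that of Treml2, with 146 and 481 in the IZ and 148 and 116 in the RZ. Dab2, an endocytic adaptor, was the lower member (chr15:6299788-6440712). It had 437 and 144 in the IZ, 291 and 334 in the BZ and 476 and 573 in the RZ, a log2 difference of -0.93 ± 0.29, and the zones did not overlap. With 1 library left out it ran from -1.88 to -0.17.

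Of 15 hypoxia and glycolysis windows, 12 were fitted higher in the IZ, with a median log2 difference of 0.27 and medians of 0.15 in pair 2 and 0.25 in pair 3. At an unadjusted p under 0.05, 4 were higher and 0 lower, and in 7 both IZ libraries lay above both RZ libraries and in 0 below, against 4.6% and 18% of all windows. The medians were 0.17 and 0.00 in the sham pairs and 0.14 and 0.23 in the day 7 pairs, and the summed level of the sham IZ was 1.16 and 1.06 times that of the RZ against 1.15 and 1.39 here. On pairs in regions the sums were 1380 and 2061 in the IZ and 1396 and 1479 in the RZ. Shares of pairs in regions differed in pair 2 (42.04% in the IZ, 55.18% in the RZ). The scaling leaves this gap in, so pair 2 cannot be compared there. Vegfa, the endothelial growth factor induced by low oxygen (chr17:46016993-46032369), had 79.7 and 127 in the IZ, 54.7 and 83.6 in the BZ and 29.5 and 58 in the RZ. Its difference was 1.41 in pair 2 and 1.06 in pair 3, and the fitted value was 1.47 ± 0.41. Egln3, a prolyl hydroxylase that is itself a HIF target, had 72.9 and 159 in the IZ, 46.3 and 121 in the BZ and 31.4 and 14.5 in the RZ. The value of 14.5 rests on 2 pairs. Pfkfb3, which drives glycolytic flux, had 321 and 571 in the IZ, 366 and 395 in the BZ and 256 and 225 in the RZ. For these 3 genes both IZ libraries exceeded both RZ libraries. Adm, adrenomedullin, went against the list, with 59.2 and 14.4 in the IZ and 68.2 and 36.3 in the RZ.

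Inflammatory cytokine, chemokine and receptor genes were mixed. The median of 19 windows was 0.06, with 2 higher and 0 lower at an unadjusted p under 0.05, against 4.6% and 3.9% of all windows. Il1rn, the IL-1 receptor antagonist, had 107 and 332 in the IZ, 177 and 188 in the BZ and 88.5 and 72.5 in the RZ, and Nfkbia, the inhibitor of NF-kB, 203 and 280 in the IZ against 170 and 145 in the RZ. In both genes the zones did not overlap. Cxcl2 and Cxcl3, ligands of Cxcr2, overlapped between zones, with 123 and 199 against 144 and 116 and with 112 and 147 against 160 and 58. Il18r1 had 100 and 115 in the IZ and 83 and 94.3 in the RZ, a log2 difference of 0.31 ± 0.33.

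Other lists stayed near the median of all windows. The 13 matrix and repair windows had a median of 0.11 with 1 higher at an unadjusted p under 0.05, against 4.6% of all windows. That was Adam8, a leukocyte metalloprotease, with 303 and 424 in the IZ and 247 and 225 in the RZ. The 12 interferon response windows had a median of 0.15 and none with an unadjusted p under 0.05. The 14 AP-1 and C/EBP factor windows had a median of -0.11 and 2 higher at an unadjusted p under 0.05, against 4.6% of all windows. Those were Maff, with 130 and 182 in the IZ and 81.1 and 79.8 in the RZ, and Jun, with 125 and 179 against 90.4 and 109. Fos, the partner of Jun in AP-1, had 335 and 441 in the IZ and 485 and 421 in the RZ, and its zones overlapped.

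Markers of other cell types were read beside these lists. On all pairs, the 5 tested cardiomyocyte windows had a median of 0.47, the 3 fibroblast windows 0.75 and the 6 endothelial windows 0.57, the last with 2 higher at an unadjusted p under 0.05, against 4.6% of all windows. These were Kdr, a VEGF receptor, with 63.8 and 86.5 in the IZ and 31.4 and 29 in the RZ, and Col4a1, with 148 and 133 against 77.5 and 87. The summed endothelial level over 7 genes was 954 and 917 in the IZ, 952 and 692 in the BZ and 765 and 914 in the RZ, and the zones did not separate in pair 3. On pairs in regions, scaled to the same totals, the sums were 431 and 447 in the IZ and 476 and 493 in the RZ. The libraries numbered 2 differed in their share of pairs in regions (42.04% in the IZ, 55.18% in the RZ). The scaling leaves this gap in, so sums in regions do not order the zones here. The summed cardiomyocyte level was 519 and 507 in the IZ, 349 and 468 in the BZ and 389 and 457 in the RZ, so IZ and RZ did not overlap, and all 5 tested windows were fitted higher. In regions, with the same limit, this sum was 251 and 285 in the IZ and 227 and 261 in the RZ. In called H3K27ac regions, 5 of 7 fibroblast genes were at 0 in all 6 libraries, including Pdgfra, Col1a2 and Postn. So were 4 of 7 cardiomyocyte genes, including Tnnt2. Regions were called over all groups of these sorted cells, so such zeros follow in part from the calling and do not compare the zones. The summed fibroblast level on all pairs was 189 and 182 in the IZ, 282 and 143 in the BZ and 114 and 131 in the RZ, so IZ and RZ did not overlap. In regions it ranged from 6.83 to 8.65 in the IZ and from 7.25 to 18.4 in the RZ, on few pairs. Around the fibroblast genes 0 regions had enough pairs for the test. T and NK cell windows had a median of -0.12, with 1 of 5 higher at an unadjusted p under 0.05 and 0 lower, against 4.6% and 3.9% of all windows, and B cell windows one of 0.29. The one higher window was Cd3d, a T cell receptor subunit, with 68.3 and 54.8 in the IZ and 29.5 and 29 in the RZ, and the other 4 T and NK cell windows were fitted lower. On all pairs the medians in pair 2 and pair 3 were 0.42 and 0.72 for cardiomyocyte, 0.78 and 0.15 for fibroblast and 0.74 and 0.16 for endothelial windows. Pairs outside regions count in these values, and the part of the differing shares in regions in them was not tested. The part of these cells in the zone difference was not tested either.

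**Figure D3:**
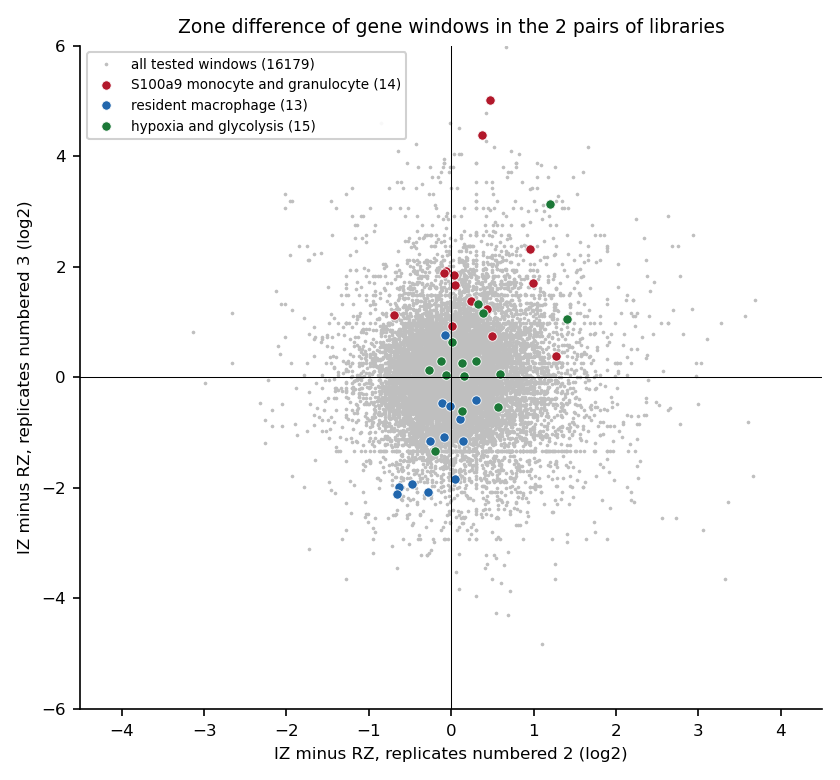
Log2 difference between IZ and RZ of each tested gene window in the pair of libraries numbered 2 (horizontal axis) and the pair numbered 3 (vertical axis), with 16179 windows in gray and 3 lists in color. The S100a9 list reaches far up and the resident macrophage list far down in pair 3, with medians of 1.68 and -1.15, while both lie near 0 in pair 2, with medians of 0.31 and -0.09. One window lies outside the plotted range.

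The differences of the S100a9 and resident lists rested mainly on IZ replicate 3 and were smaller with IZ replicate 2. With it left out, so that IZ replicate 3 stood alone against both RZ libraries and was assumed to vary like the other groups, 238 windows passed, 194 higher and 44 lower. Of the S100a9 list 9 of 14 were then higher (S100a9, S100a8, Wfdc21, Cxcr2, Csf3r, Il1r2, Trem1, Trem3 and Padi4) and 0 lower, against 194 and 44 of all 16179 windows, and its median was 1.51. Of the resident list C1qa and Mrc1 passed and were lower, and its median was -1.28. Ltf, Il1rn, Vegfa, Slc2a1, Pfkfb3, Trem2 and Treml4 of the Ly6c-low monocyte list also passed and were higher, and Dab2, Mertk, C1qb, C1qc and Mef2a lower. Il1r2, Trem1, Trem3, Padi4, Mrc1, Slc2a1, Treml4, Mertk and Mef2a are named here after their values were seen. With IZ replicate 3 left out instead, 0 windows passed and the medians were 0.29 for the S100a9 list and -0.03 for the resident list. With 1 library left out, the median ran from 0.02 to 0.64 for the Arg1 list (0.00 in pair 2 and 0.83 in pair 3), from -0.01 to 0.59 for the neutrophil granule list, from -0.52 to -0.12 for efferocytosis and from 0.13 to 0.28 for hypoxia and glycolysis. For the markers of other cells it ran from 0.41 to 0.88 for cardiomyocytes, from -0.07 (without RZ replicate 2) to 0.96 for fibroblasts and from 0.25 to 0.71 for endothelial cells. The median of the leukocyte and macrophage identity list ran from -0.40 to -0.14, and that of the macrophage identity factors from -0.59 to -0.08. Among single genes, the log2 difference ran from 0.80 to 2.80 for Cxcr2, from 0.41 to 1.31 for Csf3r, from 0.56 to 1.40 for Ltf, from 0.93 to 1.75 for Vegfa, from 0.30 to 1.58 for Trem2, from -1.99 to -0.68 for Gas6, from -2.03 to -0.30 for C1qa and from -2.15 to -0.57 for Cbr2, but only from -0.51 to -0.44 for Lrp1 and from -1.93 to -1.51 for Efna1. With RZ replicate 2 left out, 7 windows passed, all lower and none of them named here.

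Windows with the smallest unadjusted p that overlap no window of a smaller p belonged to no list in most cases. Ltf had a small p as well and is covered by Rtp3, with which it overlaps. Higher in the IZ were Slc30a4, Rtp3, Tiam1, Adh5, Dach1, Vegfa, Klf7 and Bend4, with unadjusted p from 9.8e-05 to 0.00099 and an adjusted p of 0.47 for each. Slc30a4, a zinc transporter, had 75.2 and 115 in the IZ, 114 and 70.3 in the BZ and 5.53 and 50.8 in the RZ. The value of 5.53 rests on 3 pairs, and the log2 difference ran from 0.80 to 3.89 with 1 library left out. Tiam1, an activator of the GTPase Rac (chr16:89787111-90143769), had 490 and 473 in the IZ, 577 and 273 in the BZ and 232 and 218 in the RZ. Its difference was 1.07 in pair 2 and 1.10 in pair 3, unlike that of the S100a9 list. Rtp3 had 137 and 208 in the IZ and 57.2 and 87 in the RZ, and its window overlaps that of Ltf. Klf7, a Krüppel-like factor, had 216 and 314 in the IZ and 112 and 181 in the RZ.

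Lower in the IZ by the same rule were, among others, Efna1, C1qtnf1, Usp24, Cfap74, Lgmn, Hist1h3b and Slco2b1, with unadjusted p from 0.00011 to 0.00092. Efna1, an ephrin ligand (chr3:89271733-89281142), had 45.6 and 31.7 in the IZ, 114 and 74.3 in the BZ and 124 and 138 in the RZ, a log2 difference of -1.67 ± 0.39. C1qtnf1, a secreted relative of C1q, had 205 and 133 in the IZ, 173 and 183 in the BZ and 354 and 305 in the RZ. Slco2b1, an anion transporter, had 169 and 37.5 in the IZ, 25.3 and 99.5 in the BZ and 208 and 355 in the RZ. The zones did not overlap for any of these windows, as the rule favors such genes.

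The S100a9 and resident lists had medians of the same sign without an infarct. For sham hearts and for day 7 the plain mean of the 2 pairs was taken per window, unlike the fitted medians above. In sham hearts at day 3 the S100a9 list had a median IZ minus RZ of 0.64, with 13 of 14 windows higher. The resident list had one of -0.41, with 2 of 13 higher, against 7776 of all 16179 windows. The summed S100a9 level was 1356 and 1312 in the sham IZ, 1255 and 1047 in the sham BZ and 809 and 925 in the sham RZ. The summed resident level was 1629 and 2630, 1940 and 3261, and 2640 and 2864 in the same order. The sham IZ exceeded the sham RZ in the S100a9 sum by factors of 1.68 and 1.42, and IZ replicate 2 after MI by the smaller 1.13. Ly6c2 differed by 2.08 and 1.36 in the 2 sham pairs and by 0.67 and 1.32 after MI.

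The test of the difference itself, the zone difference after MI less that in sham, had 0 of 16179 windows (0%) with an adjusted p under 0.05. The lowest was 0.9, and 858 windows had an unadjusted p under 0.05. Of the 14 S100a9 windows 1, of the 15 hypoxia windows 2, of the 12 Arg1 windows 2 and of the 13 resident windows 0 were among these, against 5.3% of all windows. Arg1 itself had a difference of differences of 1.23 ± 0.45 (adjusted p = 0.91), with -1.31 and -0.26 in the sham pairs. The Vegfa window differed by 0.27 and -0.52 in the sham pairs, and Efna1 by -0.13 and -0.01, against -1.41 and -2.09 after MI. For Efna1 the difference of differences was -1.60 ± 0.47 (adjusted p = 0.91). Klf7 had the opposite sign in one sham pair (-0.89 and 0.07), and its difference of differences was 1.49 ± 0.37 (adjusted p = 0.91).

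**Figure D4:**
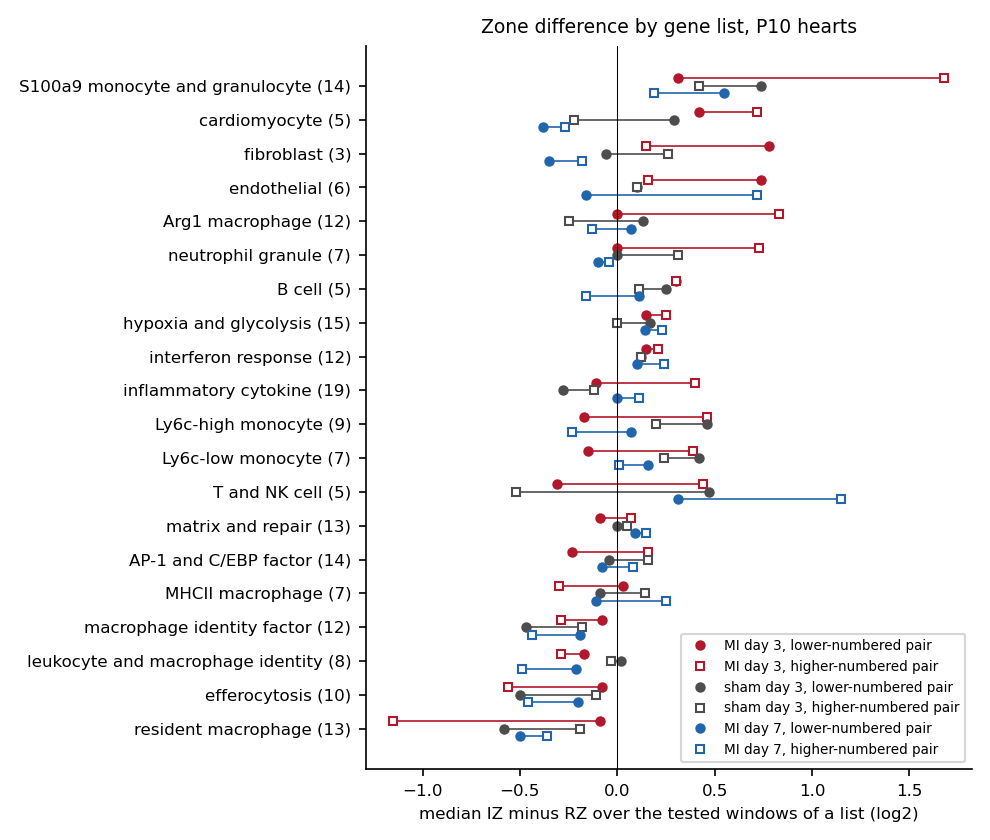
Median log2 difference between IZ and RZ over the tested windows of each list (number in brackets), for the 2 pairs of libraries after MI at day 3, in sham at day 3 and after MI at day 7. Filled circles are the lower-numbered and open squares the higher-numbered pair, joined by a line. The S100a9 list is above 0 and the resident list below 0 in all 6 pairs, and the pair numbered 3 after MI at day 3 lies farthest out, at 1.68 and -1.15.

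At day 7 after MI, by the same plain mean of 2 pairs, the S100a9 list had a median of 0.38 and the resident list one of -0.45. Pair 2 at day 3 did not differ more than that: its IZ stood at 1.13 times the RZ in the S100a9 sum, against 1.25 and 1.06 at day 7, and at 0.91 times in the resident sum, against 0.71 and 0.79. Pair 3, at 3.27 and 0.49 times, lay outside these ranges. The summed S100a9 level was 1151 and 1212 in the day 7 IZ, 941 and 898 in the BZ and 922 and 1143 in the RZ. The summed resident level was 2314 and 2232, 3043 and 2995, and 3264 and 2815. Here the 2 IZ libraries lay close together, unlike at day 3. The test of day 3 less day 7 had 0 windows (0%) with an adjusted p under 0.05, a lowest value of 0.57 and 615 windows with an unadjusted p under 0.05. The smallest of these p-values among the named windows was that of Efna1, which had 182 and 129 in the day 7 IZ and 133 and 98 in the day 7 RZ, the reverse of day 3 (difference -2.05 ± 0.46, adjusted p = 0.57).

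The BZ was not uniformly midway. The contrast of BZ with the mean of IZ and RZ had 0 windows (0%) with an adjusted p under 0.05, a lowest value of 0.46 and 958 windows with an unadjusted p under 0.05. For the S100a9 list both BZ libraries, at 2303 and 2503, lay above both RZ libraries and between the IZ libraries, at 1.92 and 2.23 times the RZ of the same number. For the resident list they lay below both RZ libraries, at 0.47 and 0.68 times. In pair 2 the BZ was farther from the RZ than the IZ was in both lists, and in pair 3 nearer. For efferocytosis the BZ sums of 2051 and 2332 lay between IZ (2688 and 1897) and RZ (3152 and 3329) in pair 3 but below both in pair 2. For hypoxia and glycolysis the BZ sums were 2303 and 2485, against 2205 and 3067 in the IZ and 1924 and 2205 in the RZ. Single genes varied: on the log2 scale the BZ was nearer to the RZ for Efna1 and nearer to the IZ for Lrp1 in both pairs.

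At the level of single elements, 23079 H3K27ac regions were called from all groups and 11951 had enough pairs for the test. One region (0.00837%) had an adjusted p under 0.05, and it was lower in the IZ. At an unadjusted p under 0.05, 457 (3.82%) were higher and 421 (3.52%) lower. Both IZ libraries exceeded both RZ libraries in 2145 regions (17.9%) and lay below in 1828 (15.3%). RZ replicate 3 had a median of 3 pairs per region, and the median standard error was 0.67 on the log2 scale. The share of pairs inside regions was 42.04% and 50.65% in the IZ, 42.57% and 49.41% in the BZ and 55.18% and 50.81% in the RZ. The part of that gap between IZ and RZ replicate 2 in the region results, and in the window values on all pairs, was not tested.

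The region that passed lies at chr2:59338001-59341000, over an exon of Pkp4, which encodes a plakophilin of cell junctions. It is 109077 bp from the start of that gene. It held 0 and 0 pairs in the IZ, 1 and 6 in the BZ and 18 and 4 in the RZ, or 29.1 and 26 CPM in the RZ. With 3 pairs put in place of 0 over the 2 IZ libraries it was 7.34-fold lower in the IZ. The RZ count was taken as exact, and the adjusted p of limma was 0.0014. In sham libraries it had 5.53 and 10.1 in the IZ and 8.83 and 13.1 in the RZ, and at day 7 after MI 15.6 and 8.17 against 13.8 and 12.4, so the zones overlapped or lay close together there. The call was lost with IZ replicate 3 or RZ replicate 2 left out, with only the 12 P10 day 3 or the 6 P10 MI day 3 libraries in the fit and with IZ and RZ thinned to the shallowest, while the log2 difference kept its direction. With 1 of the 4 libraries left out the log2 difference ran from -4.60 to -4.43, against -4.52 in the main fit. No region passed among those called at 6 times the mean. The difference of differences against sham had an adjusted p of 0.59 and that against day 7 one of 0.41. No region passed the tests of MI less sham, of day 3 less day 7 or of the BZ against the mean of IZ and RZ (0% in each), which had lowest adjusted p-values of 0.59, 0.36 and 0.6 and 558, 580 and 597 regions with an unadjusted p under 0.05.

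The region closest to the threshold in the other direction lies at chr8:122483501-122486500, over an exon of Piezo1, a mechanosensitive channel, and 2881 bp from the start of Ctu2. It held 15 and 5 pairs in the IZ, 0 and 4 in the BZ and 0 and 0 in the RZ. With 3 pairs in place of 0 in the RZ it was 6.66-fold higher in the IZ, taking the IZ count as exact. Its adjusted p rounds to 0.05 and did not pass. An intron of Aff1, which encodes a transcription elongation scaffold, held a region (chr5:103744501-103750000) with 43.7 and 55.4 CPM in the IZ, 17.6 and 26.1 in the BZ and 3.23 and 13 in the RZ. Its log2 difference was 2.91 ± 0.69 (adjusted p = 0.14), from 1.66 to 3.59 with 1 library left out.

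A 9000 bp region in an intron of Iqsec1, an exchange factor for ARF GTPases (chr6:90750001-90759000), had 48.5 and 136 in the IZ, 92.3 and 70.5 in the BZ and 11.3 and 52 in the RZ (adjusted p = 0.2). The IZ values enclosed an RZ value, and the log2 difference ran from 0.60 to 2.87 with 1 library left out. This region also had higher levels in the IZ of sham hearts, with 44.2 and 42.5 against 10.1 and 7.89, and at day 7, with 27.2 and 53.1 against 7.36 and 6.22. In those 2 settings the zones did not overlap. The difference after MI less that in sham was -0.02 ± 0.82. A region in an intron of Anxa11 (chr14:25850501-25862500) likewise had higher levels in the sham IZ, with 60.8 and 56.7 against 22.7 and 36.8, beside 84.9 and 150 in the IZ and 33.9 and 39 in the RZ after MI.

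Among the lower regions, those near Nfil3 (chr13:52960501-52963500) and Sectm1a (chr11:121081501-121084000) held no pair in either IZ library. With 3 pairs in place of 0, and the RZ counts taken as exact, they were 3.67-fold and 3.34-fold lower. Neither passed the test (adjusted p-values of 0.14 and 0.15). A region over an exon of Zfp710, 22978 bp from the start of Idh2 (chr7:80089501-80093000), had 0 and 2.77 in the IZ and 17.8 and 39 in the RZ. The region in an intron of Dab2 (chr15:6332501-6349500, 17000 bp) had 75.2 and 11.1 in the IZ, 65.9 and 70.5 in the BZ and 113 and 97.5 in the RZ. It lies inside the Dab2 window and supplies part of its pairs, so their common direction is not a second observation. Its log2 difference was -1.76 ± 0.47 (adjusted p = 0.3) and ran from -3.14 to -0.54 with 1 library left out, and in sham hearts it had 44.2 and 68.8 in the IZ against 98.3 and 121 in the RZ.

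**Figure D5:**
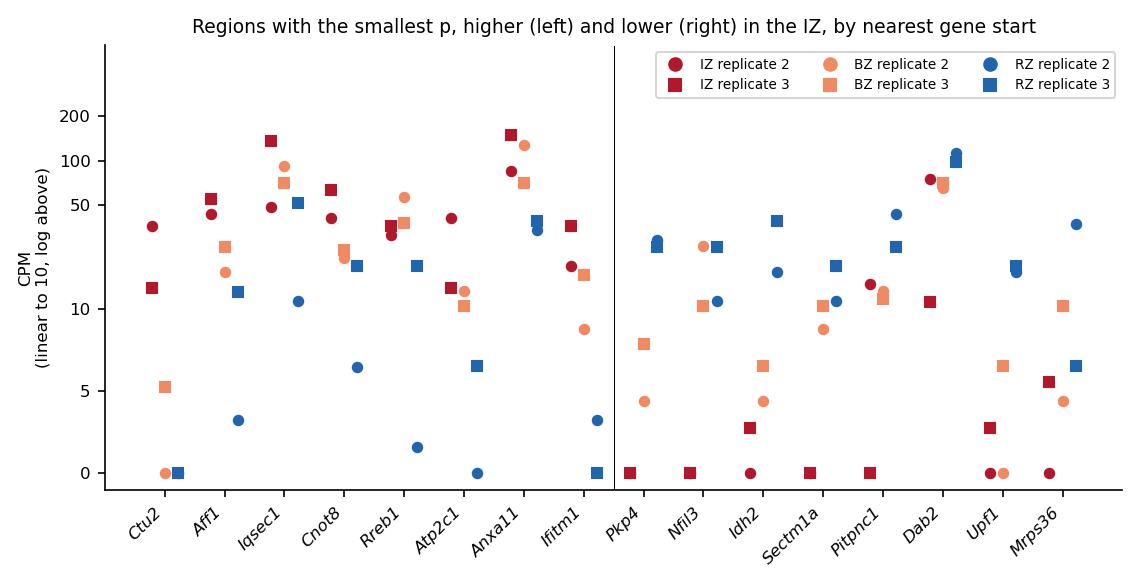
H3K27ac level of the 16 regions with the smallest p, in CPM (axis linear up to 10, logarithmic above), in the 6 P10 MI day 3 libraries, named by the nearest gene start. Circles are replicate 2 and squares replicate 3. Regions left of the line were higher and those right of it lower in the IZ. The Pkp4 region has no pair in either IZ library and 29.1 and 26 in the RZ, and symbols at the same level hide each other.

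The 200 bases around the highest point, over all groups, of the 3 regions with the smallest p in each direction are given to describe these regions. They are the plus strand of GRCm38, with motif matches in capitals. The motifs searched on both strands were AP-1 (TGANTCA), PU.1 (GAGGAAGT), C/EBP (TTGCNNAA), MAF (TGCTGAC), IRF (GAAANNGAA) and NF-kB (GGGANTTCC), which are bound by factors of myeloid enhancers.
Higher in the IZ, Piezo1 exon (chr8:122484126-122484325): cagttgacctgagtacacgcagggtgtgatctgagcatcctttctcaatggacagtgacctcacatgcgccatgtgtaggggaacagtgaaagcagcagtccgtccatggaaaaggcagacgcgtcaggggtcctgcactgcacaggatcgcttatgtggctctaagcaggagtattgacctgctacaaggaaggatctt
Higher in the IZ, Aff1 intron (chr5:103746626-103746825): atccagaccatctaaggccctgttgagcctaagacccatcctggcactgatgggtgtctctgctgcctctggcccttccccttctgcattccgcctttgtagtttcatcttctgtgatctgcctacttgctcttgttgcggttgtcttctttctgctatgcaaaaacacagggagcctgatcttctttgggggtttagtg
Higher in the IZ, Iqsec1 intron (chr6:90757276-90757475): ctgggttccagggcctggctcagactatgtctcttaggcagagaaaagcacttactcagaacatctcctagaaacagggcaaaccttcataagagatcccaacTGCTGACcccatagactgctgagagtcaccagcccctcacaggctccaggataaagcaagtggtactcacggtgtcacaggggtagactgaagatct
Lower in the IZ, Pkp4 exon (chr2:59338726-59338925): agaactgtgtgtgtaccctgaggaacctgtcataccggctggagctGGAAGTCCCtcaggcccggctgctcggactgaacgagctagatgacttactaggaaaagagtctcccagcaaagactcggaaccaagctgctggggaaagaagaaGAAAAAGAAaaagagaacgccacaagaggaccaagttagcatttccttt
Lower in the IZ, near Nfil3 (chr13:52963026-52963225): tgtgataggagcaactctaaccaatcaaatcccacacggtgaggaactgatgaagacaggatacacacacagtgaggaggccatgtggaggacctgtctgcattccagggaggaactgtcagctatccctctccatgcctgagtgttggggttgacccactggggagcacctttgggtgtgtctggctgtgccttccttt
Lower in the IZ, Zfp710 exon (chr7:80092226-80092425): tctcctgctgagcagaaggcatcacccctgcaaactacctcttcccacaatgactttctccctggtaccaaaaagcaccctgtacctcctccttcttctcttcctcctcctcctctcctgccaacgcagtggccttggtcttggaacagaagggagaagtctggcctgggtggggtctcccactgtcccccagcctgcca

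The Iqsec1 sequence holds 1 MAF match and the Pkp4 sequence 1 IRF and 1 NF-kB match, while the other 4 hold none of the 6 motifs. Over all tested regions the same 200 bases held AP-1 in 6.02%, PU.1 in 4.16%, C/EBP in 6.18%, MAF in 3.85%, IRF in 4.54% and NF-kB in 1.39%. Regions with a PU.1 match had a median log2 difference of 0.07, those with AP-1 0.03, C/EBP 0.02, IRF 0.00, NF-kB -0.04 and MAF -0.06, against -0.01 over all regions. These medians are a description. A match is a run of letters and not a binding site.

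Of 4531 distal regions, 5.12% were higher and 3.77% lower at an unadjusted p under 0.05, against 3.03% and 3.37% of 7420 promoter regions. The medians were 0.02 and -0.02. Around the S100a9 list, 22 regions were tested, of which 4 were higher and 0 lower at an unadjusted p under 0.05, with a median of 0.77. The 34 regions around resident macrophage genes had 0 higher and 6 lower, with a median of -0.73, and the 36 around hypoxia and glycolysis genes 3 higher and 1 lower, with a median of 0.20, against 3.82% higher and 3.52% lower over all regions. As for the windows, pair 3 carried the larger part, with medians of 1.15 and -1.32 for the first 2 lists against -0.07 and -0.10 in pair 2. With IZ replicate 2 left out 68 regions passed, 46 higher and 22 lower, the Pkp4 region among them. With IZ replicate 3 left out 1 region passed, the one over Piezo1, and with RZ replicate 2 left out 0 passed.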

How the data were processed

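The authors sorted the cells, made the CoBATCH libraries, used Bowtie2 and mm10 for alignment, discarded duplicates and poorly mapped reads, and filtered cells on reads per cell. The deposited files list the aligned reads of 1 library with coordinates, read name, mapping quality score and strand, and name no cell. The submitters' processing notes also name Picard, MACS2 2.2.7.1 and deepTools. No coordinate exceeded its GRCm38 chromosome, and GENCODE M21 gave 21938 protein-coding genes. Mates were joined by read name and counted once at the midpoint, and reads without a mate were counted as 1. Repeated lines, 15.6% to 19.1% in the 3 P10 MI day 3 libraries numbered 2 and 0 in those numbered 3, were dropped. Regions were 500 bp bins reaching 4 times the average covered bin, with all 24 groups weighted equally, merged within 1000 bp.

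The test was that of limma 3.58.1 (voom, two-sided, R 4.3.3) on windows averaging 10 or more pairs over the libraries and on regions averaging 3 or more. It took in 42 libraries at once, with 24 group means, TMM scaling and the 14 pools of equal age, surgery, day and number as a random block (correlation 0.211 for windows, 0.0568 for regions). Deeper libraries weigh more, so a fitted difference can lie outside the values of both pairs. P-values were adjusted by Benjamini-Hochberg within windows and within regions. The other contrasts were the zone difference after MI less that in sham, that at day 3 less that at day 7, and BZ against the mean of IZ and RZ. Another 6 labelled samples were not analysed here. MI and sham were read from the titles. The paper calls its replicates biological, and the labels give only their numbers, so p-values measure the spread between these libraries. No molecular identifiers were used, so read pairs need not be separate molecules. Fold values with a floor allow for counting error in the empty zone only.

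The members, the 20 lists and the tests were chosen with earlier results of these data known. Named were up to 3 windows per list and direction with the smallest p and the same sign in both pairs, 32 genes from the study's text, up to 8 windows (leaving out one that overlaps a window of smaller p) and 8 regions per direction with the smallest p and the same sign in both pairs, and any feature that passed. Those named in no sentence are covered by the counts of their list, and a few are not reported here. Simulated data were used to test the fit. Alternatives were 2 other scalings, a lower minimum of pairs, a replicate block, no block, fewer libraries in the fit, limma-trend, quality weights, pairs in regions, thinning, regions at 6 times the mean and leaving out each library. Counting and plotting were done in Python 3.11.15 (pandas 2.3.3, numpy 2.4.6, matplotlib 3.10.9, scipy 1.17.1).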

Additional observations from a re-analysis of the deposited data

How the results depend on the processing

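RZ replicate 3, with 137589 pairs, limits single genes: a difference resting on it can hinge on 1 pair. Differences several times their standard error did not pass either. Slc30a4 at 2.83 ± 0.65 and Efna1 at -1.67 ± 0.39 each had an adjusted p of 0.47 in the limma test. The count of windows that differed between IZ and RZ was 0 under all alternatives that kept the 4 libraries, and 0 to 238 when a library was left out (238 without IZ replicate 2, 7 without RZ replicate 2). For MI less sham it was 0 to 3 (3 without RZ replicate 2), and for the BZ against the mean 0 to 8 (8 without IZ replicate 3, 1 without RZ replicate 2). The count of regions between IZ and RZ, 1 in the report, was 0 with only the 12 P10 day 3 or the 6 P10 MI day 3 libraries in the fit, 0 with IZ and RZ thinned to the shallowest and 0 with regions called at 6 times the mean. It was 0 to 68 when a library was left out (68 without IZ replicate 2, 0 without RZ replicate 2), and for the BZ 0 to 1 (1 without IZ replicate 3). Why these counts changed was not tested, beyond the fewer libraries or pairs.

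The replicate block as a fixed term gave 0 windows and 1 region between IZ and RZ, the same region, and 1 window (Tnik, lower) for day 3 less day 7, and it changed no other count. Replicate deviations of the P10 MI day 3 zones correlated across windows at 0.023 (IZ and RZ), 0.032 (IZ and BZ) and 0.038 (BZ and RZ), so no pairing of samples was seen there beyond the shared number, flow cells and handling of repeated lines. In the same order the values were 0.12, 0.30 and 0.091 in sham at day 3 and 0.25, 0.13 and 0.24 after MI at day 7.

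Of 1777 alternative log2 differences of 121 named windows and regions, 1702 kept direction and side of the threshold, 29 passed it newly, 5 no longer did and 41 changed sign. Limma-trend gave 0.38 for Cxcl3, 0.16 for Ace and 0.06 for Nr4a1, and quality weights gave 0.03 for Cxcl3 and Ace. Scaling to all deposited pairs gave -0.02 for Pros1. Only pairs inside regions gave -0.20 for Pros1, -0.11 for Usp18, -0.48 for Tfec, 0.06 for Pecam1, 0.16 for Nr4a1 and -0.34 for H2-Aa. Thinning gave -0.38 for Ctsl, 0.41 for Col1a1, 0.65 for Cxcl3, 0.12 for Nr4a1 and -0.02 for H2-Eb1. With 1 of the 4 libraries left out, the values ran from -0.23 to 0.60 for Ace, from -0.17 to 0.53 for Cxcl2, from -0.38 to 1.19 for Cxcl3, from -0.07 to 0.96 for Ddr2, from -0.88 to 0.05 for F13a1, from -0.02 to 0.34 for Fn1, from -0.04 to 0.96 for Gpnmb, from -0.27 to 0.47 for H2-Aa, from -0.41 to 0.07 for H2-Ab1, from -0.36 to 0.07 for H2-DMa, from -0.26 to 0.46 for H2-Eb1, from -1.13 to 0.26 for Igf1, from -0.80 to 0.12 for Lyve1, from -0.31 to 0.30 for Nr4a1, from -1.43 to 0.01 for Pdgfb, from -0.05 to 1.97 for Pdgfra, from -0.22 to 0.03 for Pecam1, from -0.01 to 0.35 for Prtn3 and from -0.01 to 0.75 for Tfec.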
